A study of Rattus norvegicus with 18 samples.

Results

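The comparison described here sets INS1E cells kept with calcidiol against INS1E cells kept without vitamin D, both without glucose stimulation. It rests on 6 of the 18 arrays of the series, 3 labelled calcidiol and 3 labelled control, chosen by their sample titles. INS1E is a clonal insulin-secreting line from a rat insulinoma, so the data describe 1 line and not islets. Cells of the calcidiol group spent 72 h in 10 nM calcidiol, and the control group for the same time in the supplemented medium alone. The medium of both held 11 mM glucose, and the protocol then gives 60 min in a buffer free of glucose. The labels say that neither group was stimulated with the 22 mM glucose that other groups received for a further 60 min, and they do not name a solvent control. For comparison, 3 arrays of cells kept with 10 nM calcitriol without glucose stimulation were used, and 9 arrays of the same 3 pretreatments followed by 22 mM glucose. Each array held 150 ng of total RNA of 1 sample, and the values are log2 signals. Whether the 3 samples of each group were grown as independent cultures is not stated in the labels. The p-values therefore describe the spread among the arrays at hand, and that spread may be technical.

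Calcidiol is the circulating form of vitamin D, and the enzyme Cyp27b1 adds the hydroxyl group at carbon 1 that turns it into calcitriol, the hormone. Calcitriol binds the vitamin D receptor Vdr far more tightly than calcidiol does. The occupied receptor pairs with a retinoid X receptor such as Rxra and binds pairs of short motifs near its target genes, among them the genes of calcium carriers and of Cyp24a1, the enzyme that breaks calcitriol down. Beta cells contain the receptor, and calcium drives their insulin release. Cyp24a1 and Cyp27b1 were not analysed here.

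Beta-cell markers were high on all 6 arrays. Of 11 beta-cell markers 10 were measured, every one of them lay above the array median, and their mean log2 signal was 11.13 to 11.27 on the calcidiol arrays and 11.22 to 11.31 on the control arrays. Ins1, a rat insulin gene, had 12.78, 12.98 and 12.90 on the calcidiol arrays and 12.84, 12.85 and 12.86 on the control arrays. Of 23 markers of other cell types 10 were measured, and only the glucagon gene Gcg and the duct keratin gene Krt7 passed the filter on low signal. Krt7 had 9.72, 9.79 and 10.86 on the calcidiol arrays and 9.89, 9.72 and 9.85 on the control arrays, so it was high on calcidiol 3, where Gcg was low. The part of other cell types in the results was not tested.

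The 3 calcidiol arrays differed among themselves more than the 3 control arrays did. Among 9852 tested genes, 75 lay more than 1 log2 unit from the mean of the other arrays of their group on calcidiol 3, 44 on calcidiol 1 and 33 on calcidiol 2. The same count was 0 on control 1, 0 on control 2 and 2 on control 3. The array labelled calcidiol 3 therefore stood farthest from its group, and results are given for all arrays and, where they change, for the arrays numbered 1 and 2.

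Some arrays numbered 3 also went against their labels. Txnip, a gene that follows glucose metabolism, had 12.18 to 12.33 on the 6 arrays numbered 1 and 2 with glucose. It had 10.23 on calcidiol 3 with glucose, 10.33 on glucose 3 and 12.28 on calcitriol 3 with glucose, and 12.11 on calcitriol 3 without it. On calcidiol 3 without glucose Txnip was 10.44, as on the arrays of its own label. All labels were kept as given, the files hold no independent check of them, and a difference between cultures and an exchange of samples cannot be told apart here.

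**Figure D1:**
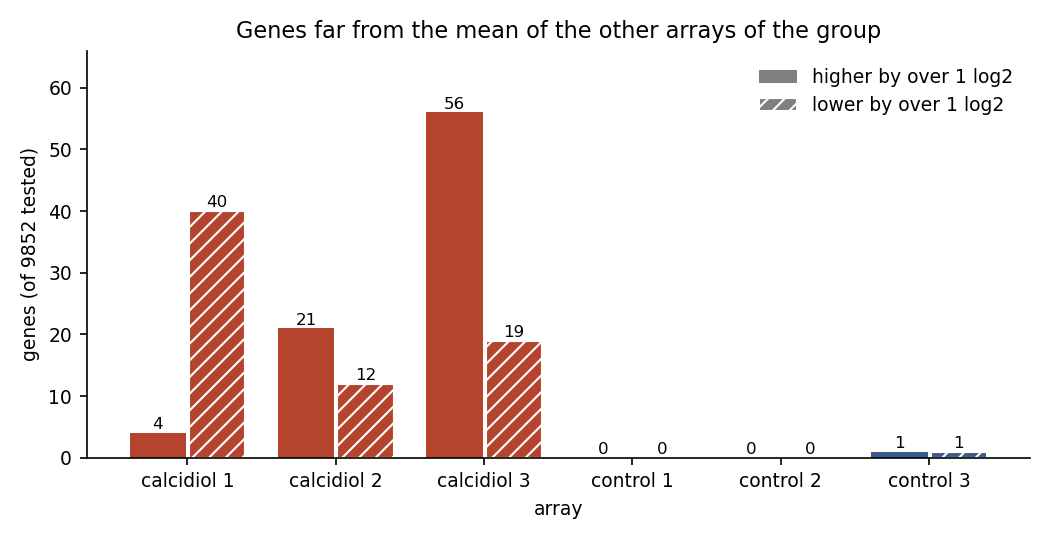
Genes among 9852 tested whose log2 signal lay more than 1 above (plain bars) or below (hatched bars) the mean of the other arrays of the same group, for the 3 calcidiol arrays and the 3 control arrays. Calcidiol 3 has 56 genes higher, calcidiol 1 has 40 lower, and the control arrays have 0 to 1 in either direction.

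Over all 3 arrays a group, no gene passed the test between calcidiol and control. Limma called 0 of 9852 genes at an adjusted p under 0.05 (0%), the smallest adjusted p was 0.9997, and 238 genes had an unadjusted p under 0.05, of which 37 were higher with calcidiol (0.376%) and 201 lower (2.04%). With the arrays numbered 1 and 2 of each of the 6 groups alone, limma again called 0 genes, and 266 had an unadjusted p under 0.05. The median difference over all tested genes was -0.02 log2 units, and 4 genes differed by more than 1 log2 unit. None of the differences given below for calcidiol against control passed the adjusted threshold.

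The smallest unadjusted p was that of Gpsm2, which encodes a G-protein signalling modulator that orients the mitotic spindle. Gpsm2 had 7.63, 7.50 and 7.61 on the calcidiol arrays and 7.96, 7.82 and 7.83 on the control arrays. Every calcidiol array was below every control array, and the difference was -0.29 (SE 0.06, unadjusted p = 0.000323, adjusted p = 0.9997 by limma). Tpmt, the gene of thiopurine methyltransferase, had 7.86, 7.77 and 8.21 on the calcidiol arrays and 8.44, 8.41 and 8.37 on the control arrays. The groups did not overlap, calcidiol 3 lay nearest to the controls, and the difference was -0.46 (95% interval -0.74 to -0.19), or -0.61 (-0.88 to -0.34) on the arrays numbered 1 and 2. Tbcb, which encodes a tubulin-folding cofactor, had 9.89, 9.88 and 9.60 on the calcidiol arrays and 10.27, 10.28 and 10.03 on the control arrays. In both groups the third array was the lowest, and the difference was -0.40 (SE 0.11). Atp5i, a subunit gene of mitochondrial ATP synthase, and Nt5c3a, the gene of a pyrimidine nucleotidase, each differed by -0.28, with standard errors of 0.07 and 0.08. Nsdhl, an enzyme gene of cholesterol synthesis, had 9.43, 9.20 and 9.25 on the calcidiol arrays and 9.54, 9.56 and 9.53 on the control arrays, a difference of -0.25 (SE 0.07).

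Among genes higher with calcidiol, the smallest unadjusted p belonged to Ror1, the gene of a Wnt-binding receptor kinase. Ror1 had 6.81, 6.90 and 6.90 on the calcidiol arrays and 6.75, 6.55 and 6.58 on the control arrays, a difference of 0.24 (SE 0.08, unadjusted p = 0.0112 by limma). Ptprn2, which encodes phogrin, a protein of the insulin granule membrane, had 10.84, 11.08 and 11.20 on the calcidiol arrays and 10.81, 10.76 and 10.75 on the control arrays. Calcidiol 1 lay within 0.03 of the highest control, the other two calcidiol arrays lay above it, and the difference was 0.27 (95% interval 0.06 to 0.47). Rpl41, a ribosomal protein gene, had 11.54, 11.27 and 11.40 on the calcidiol arrays and 11.04, 11.07 and 11.24 on the control arrays, a difference of 0.29 (SE 0.11). The remaining genes of that rank, Fam21c, Tmco3 and Tmem245, differed by 0.15, 0.15 and 0.25.

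On the arrays numbered 1 and 2 other genes had small p-values. Psme2, which encodes an activator subunit of the proteasome, had 9.98, 10.02 and 10.27 on the calcidiol arrays and 10.39, 10.44 and 10.31 on the control arrays. Calcidiol 3 lay close to the controls, and the difference on the arrays numbered 1 and 2 was -0.42 (SE 0.09). Among genes higher there, Ttr, the transthyretin gene, had 8.02, 8.06 and 7.38 on the calcidiol arrays and 7.64, 7.49 and 7.50 on the control arrays, a difference of 0.47 (SE 0.11) on the arrays numbered 1 and 2. Calcidiol 3 lay below every control for this gene.

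**Figure D2:**
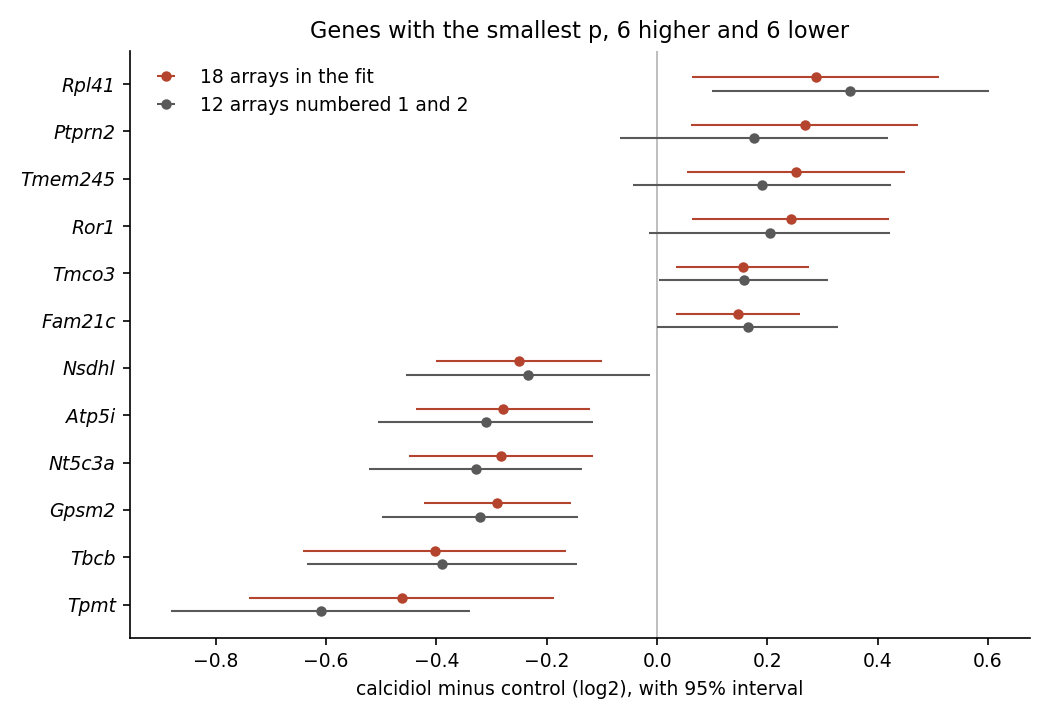
Difference of calcidiol minus control in log2 units with its 95% interval for the 6 higher and the 6 lower genes with the smallest unadjusted p, from the limma fit of 18 arrays (red) and of the 12 arrays numbered 1 and 2 (grey). The differences lie between 0.15 and 0.29 for the higher genes and between -0.25 and -0.46 for the lower ones in the fit of 18 arrays. No gene drawn passed the adjusted threshold.

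Complete separation of the 2 groups was more common below than above in the values as deposited. Every calcidiol array lay below every control array for 530 of 9852 genes (5.38%) and above it for 164 (1.66%). The median difference of these genes was -0.13 and 0.13, and only 2 differed by more than 0.5. The lower share depended on the scaling of the arrays: 76.4% of the separated genes were lower as deposited, 58.2% after quantile normalisation (379 lower and 272 higher) and 45.0% after median centring (292 lower and 357 higher). The balance of directions among separated genes thus changed with the scaling. With so few arrays a group, random labels alone would separate many genes in either direction. The counts were not tested against such a chance share. They and the separated genes named next are descriptions and no sign of a calcidiol effect.

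The separated genes with the largest differences upwards were Sgms2 and Bmp3. Sgms2, the gene of a sphingomyelin synthase, had 7.03, 6.89 and 8.24 on the calcidiol arrays and 6.55, 6.67 and 6.71 on the control arrays. Calcidiol 3 stood highest, the difference was 0.74 (95% interval 0.08 to 1.41), and on the arrays numbered 1 and 2 it was 0.35 (SE 0.17). Bmp3, the gene of a bone morphogenetic protein, had 6.69, 6.87 and 7.44 on the calcidiol arrays and 6.46, 6.35 and 6.59 on the control arrays, a difference of 0.53 (0.09 to 0.97). For Kcnc1, a potassium channel gene, Sv2c, a synaptic vesicle protein gene, Dock9 and Dffb the differences were 0.49, 0.46, 0.39 and 0.40, but 0.07, 0.12, 0.10 and 0.16 on the arrays numbered 1 and 2. For these 4 genes most of the difference came from calcidiol 3. The lower separated genes next to Tpmt and Tbcb were Utp14b (-0.41), Lcat (-0.38) and the small nucleolar RNA host gene Gas5 (-0.37). After them came Trip13 (-0.36), which encodes a spindle checkpoint ATPase, the interferon-inducible Ifi47 (-0.35) and the translation release factor gene Gspt2 (-0.34). The 95% intervals were wide for Lcat (-1.58 to 0.83) and Gas5 (-0.92 to 0.18). For Lcat the standard deviation was 0.24 on the calcidiol and 0.10 on the control arrays. Its wide interval reflects other groups in the fit, such as glucose 3 at 6.03 against 8.15 and 7.91 on glucose 1 and 2. On the arrays numbered 1 and 2 the interval of Lcat was -0.60 to 0.02.

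The array labelled calcidiol 3 carried a separate set of high signals. Over 13136 genes with no filter on signal, 103 were more than 1 log2 unit above the mean of calcidiol 1 and 2 (0.784%) and 33 more than 1 below it (0.251%). These genes were picked by those values, which are given as a description without a test. At the edge of the higher set stood Tac1 at 1.00 and the microRNA gene Mir375 at 1.01, with Doc2b just outside at 0.996. At the edge of the lower set stood Dgkh at -1.01, with the olfactory receptor gene Olr1845 just outside at -0.990. Of the 103 higher genes 102 had a higher signal on calcidiol 3 than on each of the other 5 arrays, and of the 33 lower genes all 33 had a lower one. Over all 13136 genes 2741 were higher in this way and 3110 lower. The way the 103 and the 33 were picked favours such counts. After the filter on low signal 56 of the 103 and 19 of the 33 entered the tests. Several genes named in the next paragraphs lie below that filter and were chosen after their values were seen.

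Genes of the vitamin D response list were among the highest of this set. S100g encodes calbindin-D9k, a calcium-binding protein that the receptor induces in the gut. It had 4.26, 4.47 and 9.61 on the calcidiol arrays and 4.27, 4.22 and 4.21 on the control arrays. On calcidiol 1 and 2 and on the controls it lay below the filter level, so no fold is given. Calcidiol 1 lay among the controls and calcidiol 2 just above them. Casr encodes the receptor by which cells sense calcium outside them. It had 6.20, 6.30 and 9.52 on the calcidiol arrays and 6.29, 6.19 and 6.43 on the control arrays. Igfbp5, which encodes a binding protein for insulin-like growth factors, had 5.48, 6.14 and 9.75 on the calcidiol arrays and 5.94, 5.97 and 6.32 on the control arrays. In each of these genes a single calcidiol array was high and the other two lay near the controls. Tnfrsf11b, the gene of osteoprotegerin, had 6.50, 6.49 and 8.89 on the calcidiol arrays and 6.51, 6.36 and 6.53 on the control arrays. Scnn1g, the gamma subunit gene of the epithelial sodium channel, had 6.29, 7.17 and 9.09 on the calcidiol arrays and 6.55, 6.18 and 6.33 on the control arrays, so that calcidiol 2 also lay above the controls.

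Because single arrays weigh so much, the intervals of these genes were wide. Calcidiol minus control was 1.88 for S100g (95% interval -0.81 to 4.57 in a fit without the filter), 1.04 for Casr (-0.65 to 2.72), 1.04 for Igfbp5 (-0.94 to 3.03), 0.82 for Tnfrsf11b (-0.39 to 2.04) and 1.16 for Scnn1g (-0.26 to 2.58). On the arrays numbered 1 and 2 the differences were 0.12 for S100g (-0.10 to 0.35), 0.01 for Casr (-0.19 to 0.21), -0.15 for Igfbp5 (-0.58 to 0.28), 0.06 for Tnfrsf11b (-0.47 to 0.59) and 0.37 for Scnn1g (-0.34 to 1.07). Of the 20 genes of the vitamin D response list in the table, these 5 passed 1 log2 unit on calcidiol 3, against 103 of all 13136 genes (0.784%). The gene lists were chosen with earlier results of these data known, so shares of this kind are descriptions and not tests. Of the 17 tested members of the vitamin D response list limma called 0, and the median difference was 0.05 against -0.02 over all genes tested. Among the 17, 12 were higher and 5 lower, against 3805 higher and 6047 lower over all genes tested. On calcidiol 1, 2 and 3 the list's median lay at 0.02, -0.03 and 0.14 from the mean of the controls.

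The receptor gene itself followed another pattern. Vdr had 7.50, 8.05 and 8.41 on the calcidiol arrays and 7.54, 7.56 and 7.53 on the control arrays. Calcidiol 2 and 3 lay above the controls and calcidiol 1 just below them, and the difference was 0.44 (95% interval -0.03 to 0.91, unadjusted p = 0.063 by limma). On the arrays numbered 1 and 2 it was 0.23 (-0.14 to 0.59). Rxra, the receptor's partner, had 8.996, 10.02 and 9.09 on the calcidiol arrays and 9.38, 9.23 and 9.34 on the control arrays, so that calcidiol 2 alone lay above the controls. The vitamin D metabolism, transport and receptor partner list had 13 tested members, of which 0 were called, with a median of 0.04. In this list 9 were higher and 4 lower, against 3805 higher and 6047 lower over all genes tested. Its coactivator genes Ncoa1 (0.08), Ncoa2 (0.11) and Med1 (0.04), its corepressor gene Ncor1 (0.13) and Gc, the vitamin D binding protein gene (-0.03), all differed by less than 0.15.

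**Figure D3:**
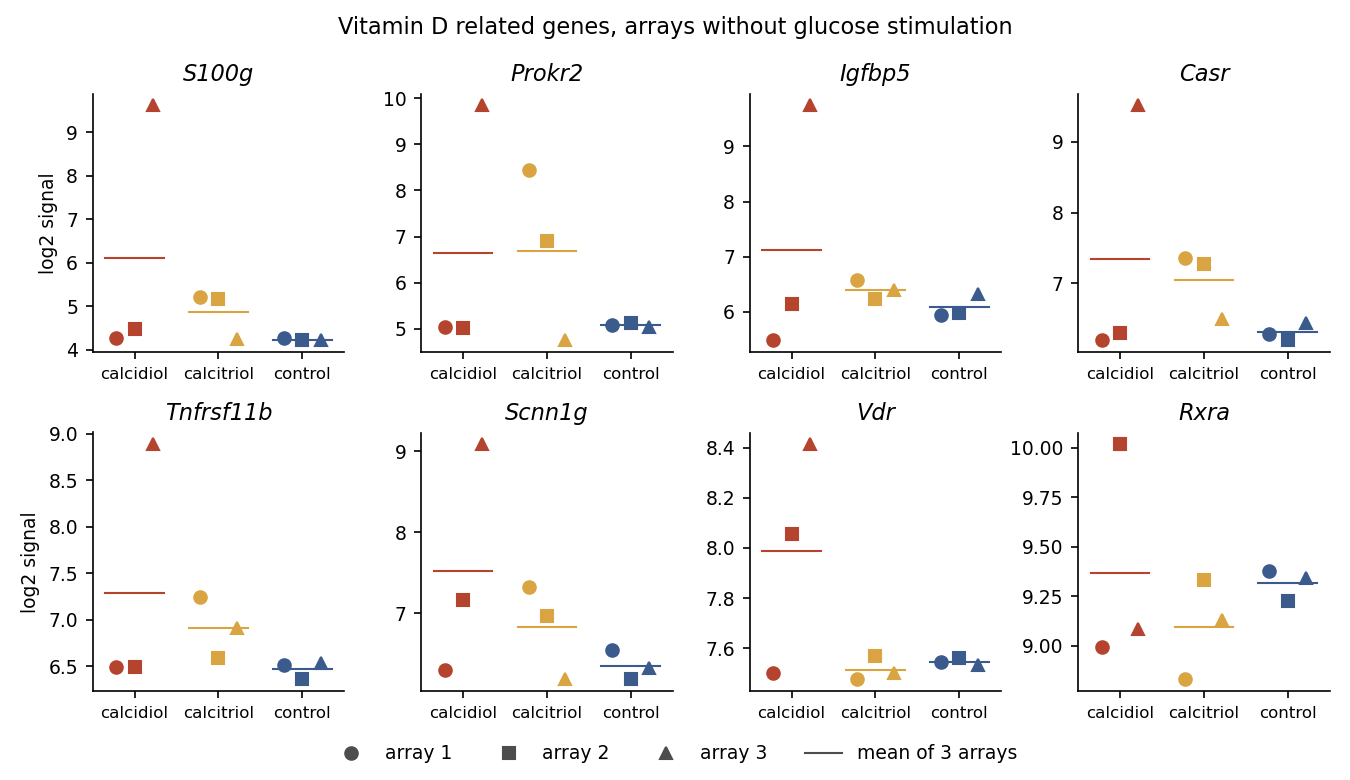
Log2 signal (vertical axes, a different range for each gene) of 8 genes on the 3 calcidiol, the 3 calcitriol and the 3 control arrays without glucose stimulation. Circles, squares and triangles are arrays 1, 2 and 3, and lines are group means. Calcidiol 3 is the highest of the 9 arrays for every gene drawn except Rxra, where calcidiol 2 is.

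Promoters of the genes in both sets were searched for the 6-base motifs that the receptor binds, AGGTCA as well as AGTTCA, and likewise GGTTCA together with GGGTCA, on either strand. The windows run from 250 bases before to the first 50 bases of each gene in RefSeq, assembly GRCr8. Those of Casr (chr11:77740364-77740663, plus strand), Scnn1g (chr1:185735975-185736274, plus strand) and Igfbp5 (chr9:81914138-81914437, minus strand) are printed because these 3 genes are in the vitamin D response list and were past 1 log2 unit on calcidiol 3. The windows of S100g and Tnfrsf11b were not analysed here. Capitals mark the motifs.
Casr: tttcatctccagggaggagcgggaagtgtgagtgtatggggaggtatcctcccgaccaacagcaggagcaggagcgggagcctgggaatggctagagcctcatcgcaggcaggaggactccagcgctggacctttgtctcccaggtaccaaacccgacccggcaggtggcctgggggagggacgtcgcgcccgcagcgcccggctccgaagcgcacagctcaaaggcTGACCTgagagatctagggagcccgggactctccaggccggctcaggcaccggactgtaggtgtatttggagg
Scnn1g: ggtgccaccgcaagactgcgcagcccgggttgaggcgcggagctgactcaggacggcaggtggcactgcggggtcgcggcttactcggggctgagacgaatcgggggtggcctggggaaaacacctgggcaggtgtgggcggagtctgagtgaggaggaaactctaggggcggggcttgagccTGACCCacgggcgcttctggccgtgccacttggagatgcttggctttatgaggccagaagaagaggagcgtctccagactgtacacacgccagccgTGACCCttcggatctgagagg
Igfbp5: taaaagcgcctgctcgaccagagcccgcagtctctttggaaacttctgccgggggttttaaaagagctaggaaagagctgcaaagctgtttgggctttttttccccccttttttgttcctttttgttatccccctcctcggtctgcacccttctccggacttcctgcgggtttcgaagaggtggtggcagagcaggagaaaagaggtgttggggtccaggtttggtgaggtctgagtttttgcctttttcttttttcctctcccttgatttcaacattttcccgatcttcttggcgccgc
The Casr window held 1 motif, the Scnn1g window 2 and the Igfbp5 window 0. At least 1 motif stood in 28 of the 68 windows matched to the 103 higher genes (41.2%), in 11 of the 25 matched to the 33 lower genes (44%) and in 12035 of all 27457 windows (43.8%). A direct repeat of 2 such motifs with 3 bases between them, the arrangement known for the receptor, stood in 0 of the 68 windows, 0 of the 25 and 28 of the 27457 (0.102%). The share was thus close to that of all rat promoters for both sets, and the windows do not reach distant sites.

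Other members of the 103 were picked after their values were seen. Prokr2, a prokineticin receptor gene, had 5.03, 5.02 and 9.85 on the calcidiol arrays and 5.07, 5.12 and 5.04 on the control arrays. Ucn3, the gene of urocortin 3, a peptide of mature beta cells, had 5.17, 5.38 and 8.68 on the calcidiol arrays and 5.34, 5.26 and 5.21 on the control arrays. Both were at control level on 2 of the 3 calcidiol arrays. Crhr1, a receptor gene of the same peptide family, had 9.44, 9.21 and 10.73 on the calcidiol arrays and 9.54, 9.46 and 9.53 on the control arrays. Npy1r, a neuropeptide Y receptor gene, was 2.04 above calcidiol 1 and 2 on calcidiol 3, Scnn1b, the beta subunit gene of the sodium channel, 1.28, and Tmem27, which encodes collectrin, 1.47. Of these genes Prokr2, Ucn3, Npy1r and Scnn1b did not pass the filter on low signal.

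Further members were picked for their size and known role. Slc30a10, a manganese transporter gene, had 7.45 on calcidiol 3, and Mmp9, a matrix metalloproteinase gene, had 7.07, while on calcidiol 1 and 2 both lay below the filter level. On calcidiol 3, above the mean of calcidiol 1 and 2, the phospholipid phosphatase-related gene Lppr1 was higher by 2.61 and the signalling adaptor gene Gab1 by 2.30. Among adhesion genes Adam23 was higher by 2.04, the cadherin gene Cdh10 by 2.03, Nrcam by 1.70, Alcam by 1.21 and the proteoglycan gene Bgn by 1.98. Cdh10 and Bgn did not pass the filter on low signal. The coagulation factor gene F3 was higher by 1.57, the growth factor gene Pdgfa by 1.48 and the nerve growth factor receptor gene Ngfr by 1.48. Of the 32 genes of the adhesion, matrix and neurite list in the table, only Nrcam passed 1 log2 unit, against 0.784% of all genes.

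Some immediate early genes were high on calcidiol 3, and they were as high on calcitriol 3, which was not stimulated with glucose either. Nr4a1, which encodes a nuclear receptor without a known ligand and responds quickly to stimuli, had 6.72, 6.85 and 8.95 on the calcidiol arrays and 6.82, 6.18 and 6.50 on the control arrays. Fos had 5.28, 5.27 and 6.69 on the calcidiol arrays and 5.57, 5.24 and 4.92 on the control arrays. Npas4, a factor gene induced by calcium entry, had 7.26, 7.84 and 8.74 on the calcidiol arrays and 7.37, 6.80 and 6.90 on the control arrays, and Nr4a3 had 5.07, 5.04 and 6.33 against 5.32, 4.97 and 5.06 there. On the 9 arrays labelled as glucose stimulated, Nr4a1 ran from 8.67 to 10.22 and Fos from 6.35 to 7.54. The lowest value of each was that of calcidiol 3 with glucose, where Txnip also went against the label. The next lowest, on glucose 1, were 9.22 for Nr4a1 and 6.39 for Fos. Calcidiol 3, whose label gives no stimulation, thus lay within the range of the other arrays for Fos. For Nr4a1 it lay below all of them except calcidiol 3 with glucose. Calcitriol 3 without glucose had 9.33 for Nr4a1, 7.05 for Fos, 9.14 for Npas4 and 6.48 for Nr4a3, each above calcidiol 3. Txnip had 10.53, 10.41 and 10.44 on the calcidiol arrays and 10.48, 10.39 and 9.88 on the control arrays, so calcidiol 3 lay between calcidiol 1 and 2. In the immediate early list 4 of the 34 genes in the table passed 1 log2 unit on calcidiol 3, against 0.784% of all genes, and the median over its 23 tested members was -0.02 for calcidiol minus control.

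The 33 genes low on calcidiol 3 included 5 olfactory receptor genes, Olr413, Olr415, Olr417, Olr419 and Olr420, at -1.04 to -1.42, which were also low on control 3 at -0.75 to -0.94. Gcg was the 1 member of the beta-cell identity and hormone list among them. Gcg had 11.82, 12.04 and 10.27 on the calcidiol arrays and 11.96, 11.58 and 11.37 on the control arrays, so calcidiol 3 lay below all others. Oxtr, the oxytocin receptor gene, had 8.16, 8.24 and 6.87 on the calcidiol arrays and 7.97, 7.98 and 7.93 on the control arrays, and Adcy1, an adenylate cyclase gene, had 8.32, 8.24 and 6.997 against 8.10, 8.07 and 7.66 there. In both genes calcidiol 1 and 2 lay above the controls and calcidiol 3 below them. The galectin gene Lgals2 was lower by -1.61 log2 units than calcidiol 1 and 2, the kinase gene Wnk3 by -1.44 and the glycerol phosphate dehydrogenase gene Gpd1 by -1.22. Prok2, the ligand gene of the receptor Prokr2, had 9.53, 10.10 and 8.76 on the calcidiol arrays and 9.52, 9.51 and 9.57 on the control arrays.

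Control 3 shared some of the low signals and few of the high ones. Of the 33 lower genes 16 were also more than 0.5 below the mean of control 1 and 2 on control 3, as were 42 of all 13136 genes (0.320%). Trpc4, a cation channel gene, had 8.27, 7.59 and 6.34 on the calcidiol arrays and 8.19, 7.86 and 6.95 on the control arrays, so the third array was the lowest in both groups. Of the 103 higher genes 4 were more than 0.5 above on control 3, as were 34 of all genes (0.259%). Among them were Cox6a2, a cytochrome oxidase subunit gene, at 1.48 on calcidiol 3 and 1.70 on control 3, and Slc7a11, the cystine transporter gene, at 1.45 on calcidiol 3 and 1.09 on control 3.

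The third array of the calcidiol group with glucose, which the choice of genes did not use, showed most of the same high genes. Of the 103 genes 82 were more than 1 log2 unit above the mean of its arrays 1 and 2, against 96 of all 13136 genes (0.731%). That is 79.6% of the 103 and 85.4% of the 96. The median of the 103 was 1.34 on that array, and S100g, Prokr2, Igfbp5 and Casr were higher there by 5.06, 4.79, 3.78 and 3.15. Of the 33 lower genes 16 were more than 1 below, against 98 of all genes (0.746%), which is 48.5% of the 33 and 16.3% of the 98. Nr4a1 at -1.18 and Nr4a3 at -1.48 went the other way on that array.

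Some of the 103 genes were also higher on calcitriol 1 and 2 than on the controls, by less, and S100g and Ucn3 were not so on calcitriol 3. S100g had 5.20, 5.17 and 4.25 on the calcitriol arrays against 4.27, 4.22 and 4.21 on the control arrays, and Ucn3 had 6.56, 6.91 and 5.04 against 5.34, 5.26 and 5.21 there. For these genes calcitriol 1 and 2 were above the controls and calcitriol 3 was not. The same held for Prokr2, with 8.44, 6.90 and 4.74 on the calcitriol arrays, and for Adam23, with 8.13, 7.67 and 6.63. Tnfrsf11b had 7.25, 6.60 and 6.91 on the calcitriol arrays, all 3 of them above the controls. Of the 103 genes 27 were more than 0.5 log2 units higher on calcitriol 1 and 2 than on control 1 and 2, against 29 of all 13136 genes (0.221%). That is 26.2% of the 103 and 93.1% of the 29, and the remaining genes, Gata3 and Pgm5, were higher on calcidiol 3 by 0.72 and 0.91. Over the 103 genes the median of calcitriol 1 and 2 minus control 1 and 2 was 0.37, against 0.00 over all genes, and the median of calcitriol 3 minus calcitriol 1 and 2 was -0.33. Among the arrays numbered 3, S100g and Ucn3 were thus high with the calcidiol label and near the controls with the calcitriol label, and among those numbered 1 and 2 they were higher with the calcitriol label.

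**Figure D4:**
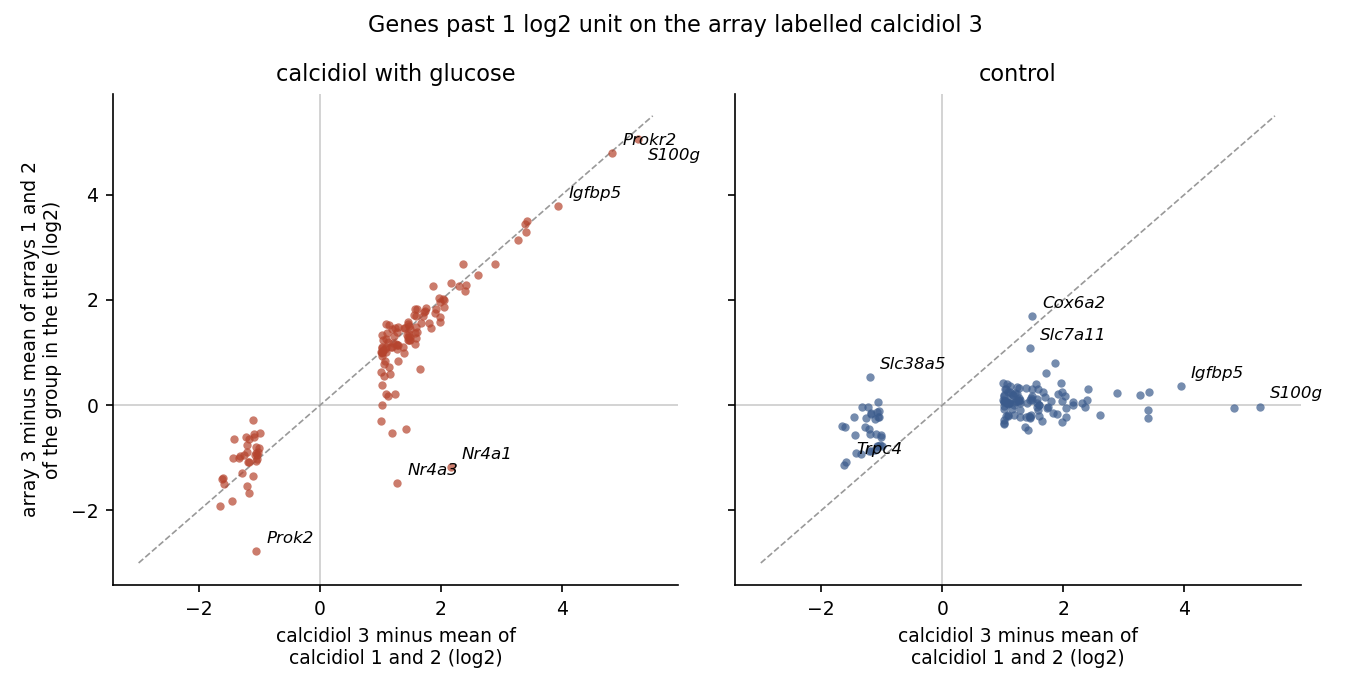
Each point is 1 of the 103 higher and 33 lower genes more than 1 log2 unit from the mean of calcidiol 1 and 2 on the array labelled calcidiol 3 (horizontal axis, log2). The vertical axis gives, in log2 units, the same difference for the third array of the calcidiol group with glucose (left) and of the control group (right), and the dashed line marks equality. On the left 82 of the 103 higher genes lie above 1, and on the right 2 do.

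Calcidiol 1 and 2 differed from each other in another set of genes. On calcidiol 1, 47 of 13136 genes were more than 1 log2 unit lower than on calcidiol 2 and 8 more than 1 higher, and between control 1 and 2 no gene was. Tgfb2, the gene of a transforming growth factor, had 5.95, 9.23 and 8.14 on the calcidiol arrays and 7.02, 7.33 and 8.02 on the control arrays, so that the controls lay between calcidiol 1 and 2. Ptges, the gene of prostaglandin E synthase, had 6.35, 9.06 and 7.57 on the calcidiol arrays and 7.67, 7.77 and 7.88 on the control arrays. Further members, picked after their values were seen, were Ak4 (-1.42), P4ha1 (-1.45), Adm (-1.42), Eno2 (-1.11), Egln3 (-1.09) and the receptor partner genes Rxra (-1.02) and Rxrg (-1.01). Of the 47 genes 37 were also more than 1 lower on array 1 than on array 2 of the calcidiol group with glucose, where 53 of all genes were. Between calcitriol 1 and 2, 14 of the 47 were, and so were 14 of all genes, so the difference was not confined to the calcidiol arrays. For Tgfb2 and Ptges the mean of the group thus hid values on both sides of the controls.

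Pathway lists moved little and no list had a called gene, in the fit of all arrays or of those numbered 1 and 2. Enzyme genes of sterol synthesis had the lowest median of the 22 lists at -0.12, against -0.02 over all genes tested. Of the 23 tested members 22 were lower, as were 61.4% of all genes tested. Against 2.04% of all genes tested, 4 of the members were lower at an unadjusted limma p under 0.05. Besides Nsdhl these were Ebp (-0.23), which encodes a sterol isomerase, Insig1 (-0.24), which encodes the sterol sensor's anchor, and Idi1 (-0.33), which encodes an isoprenoid isomerase. The list's median from the control mean was -0.00 on calcidiol 1, -0.21 on calcidiol 2 and -0.17 on calcidiol 3, so calcidiol 1 did not share it. It was -0.11 after quantile normalisation and -0.09 after median centring, with 22 and 21 members lower, when 52.4% and 46.9% of all genes were lower. On the arrays with glucose, calcidiol against none gave a median of -0.08 for the list, with 21 of 23 lower.

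Cell cycle genes had a median of -0.11, with 35 of 37 tested members lower, against 61.4% of all genes. At an unadjusted limma p under 0.05, 2 of them were lower, against 2.04% of all genes. After quantile normalisation 32 cell cycle genes were lower and after median centring 31, when 52.4% and 46.9% of all genes were lower. Mcm6, which encodes a subunit of the replicative helicase, had 9.33, 9.09 and 9.16 on the calcidiol arrays and 9.57, 9.45 and 9.30 on the control arrays, a difference of -0.24 (95% interval -0.43 to -0.05). Ccnb1, the gene of cyclin B1, had 10.32, 9.91 and 10.13 on the calcidiol arrays and 10.42, 10.30 and 10.35 on the control arrays, also -0.24. By array the list's median was 0.00, -0.25 and -0.09 on calcidiol 1, 2 and 3, and -0.09 on control 2 against the other controls. The proliferation marker Mki67 (-0.00) and Cdk4 (0.01) did not share it. Oxidative phosphorylation genes had a median of -0.05, with 31 of 37 lower, against 61.4% of all genes. Against 2.04% of all genes, 2 of them were lower at an unadjusted limma p under 0.05, among them Ndufa9 (-0.19), a complex I gene. This list's median was -0.04 with 27 lower after quantile normalisation, and -0.02 with 26 lower after median centring. Of all genes 52.4% and 46.9% were lower in these settings. Cox7b, a cytochrome oxidase subunit gene, was lower on calcidiol 1 and 2 (9.53 and 9.41) and not on calcidiol 3 (9.96) than on the controls (9.95, 9.87 and 9.78).

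The medians of beta-cell, secretion and calcium genes lay close to that of all genes. The beta-cell identity and hormone list had a median of -0.03 over 29 tested members. Ins1 differed by 0.04 (95% interval -0.07 to 0.15) and Ins2 by 0.04 (-0.06 to 0.14). Both signals lie near the top of the arrays' range, where differences may be compressed. Pcsk1, the gene of a proinsulin convertase, had 9.93, 9.43 and 9.49 on the calcidiol arrays and 9.94, 9.93 and 9.85 on the control arrays, a difference of -0.29 (-0.61 to 0.03). The beta-cell factor genes Mafa and Isl1 differed by -0.13 and -0.19. In the calcium handling list the median over 22 members was -0.02. Its store-operated calcium entry genes Stim2 (-0.13), Orai1 (-0.09) and Orai3 (-0.06) lay below every control on all 3 calcidiol arrays. They were 3 of the list's 22 tested members in the values as deposited, and the members were not recounted under other scalings. Of all genes tested 5.38% lay so as deposited, 3.85% after quantile normalisation and 2.96% after median centring. Of the 22 tested members only Casr differed by more than 0.5, and of the 24 in the table Casr and S100g were past 1 log2 unit on calcidiol 3. Among the secretion and ion channel genes the median was -0.01, the highest difference was that of Scnn1g at 1.16, and Rab27a, a granule-docking gene, differed by -0.21 (SE 0.11). In the unfolded protein response list, Ern1, the gene of the stress sensor IRE1, had 8.83, 9.24 and 9.81 on the calcidiol arrays and 8.83, 8.90 and 8.96 on the control arrays, and the list's median was -0.03. The other lists had medians between -0.07 and 0.05.

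**Figure D5:**
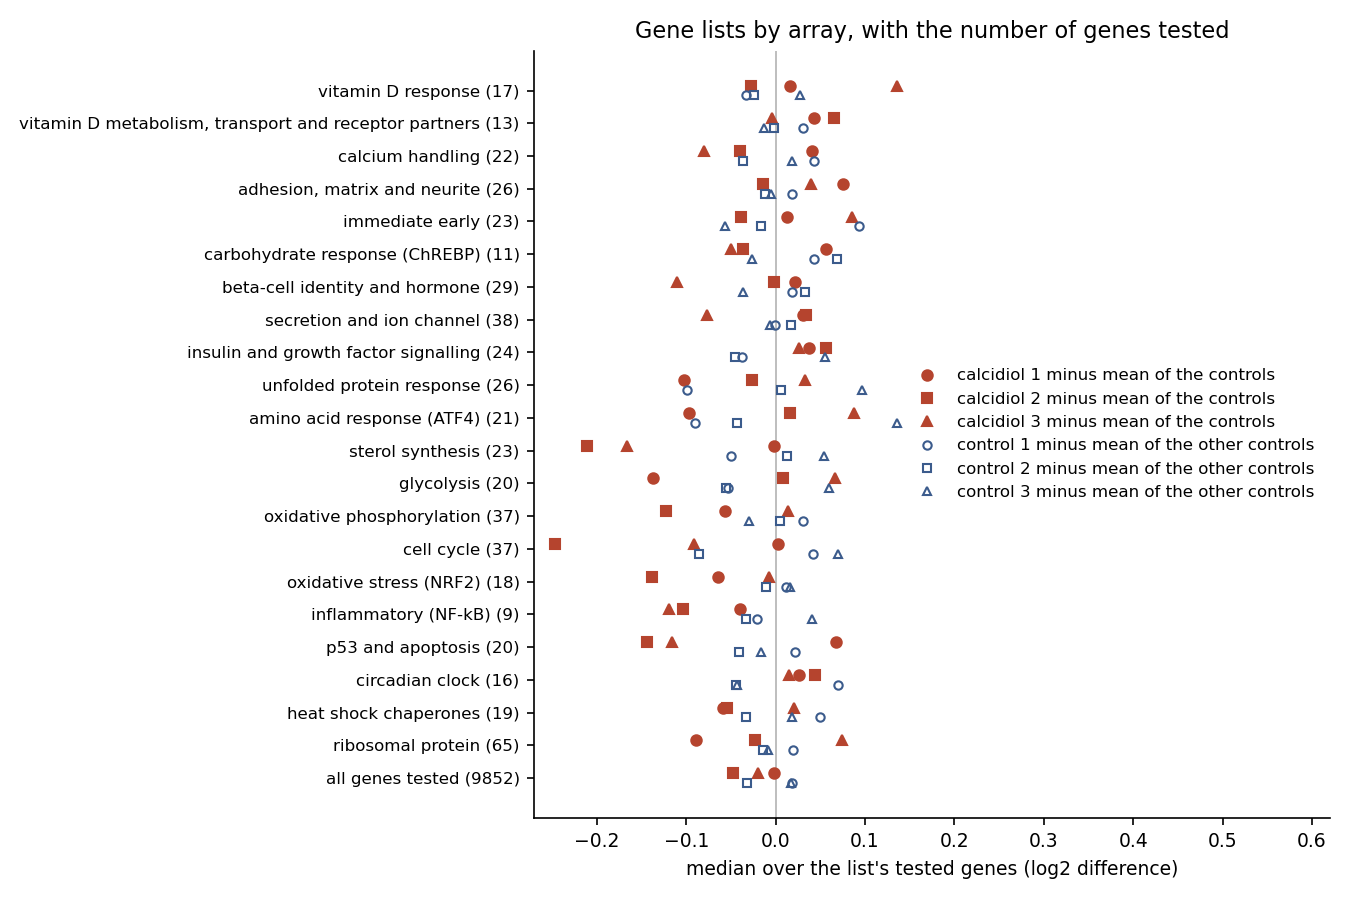
Median over the tested genes of each list (rows, with the number of genes) of the log2 difference between an array and the controls. Filled red symbols are calcidiol 1, 2 and 3 minus the mean of the 3 controls, and open blue symbols are each control minus the mean of the other controls. Sterol synthesis lies at -0.00, -0.21 and -0.17 on calcidiol 1, 2 and 3, and cell cycle at 0.00, -0.25 and -0.09.

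Calcidiol was also set against calcitriol at the same dose of 10 nM and the same time, the compounds differing by the hydroxyl group at carbon 1. This was the 1 pair of compounds compared. Over 18 arrays limma called 0 of 9852 genes (0%) and 96 had an unadjusted p under 0.05. The smallest p belonged to Agps, a gene of ether lipid synthesis, at -0.19 (SE 0.05), then Drg1 at -0.23, Snx6 at -0.19 and Ubxn2b at -0.19. On the arrays numbered 1 and 2 limma called 1 gene (0.0102%), Casr. It had 6.20 and 6.30 on calcidiol 1 and 2 and 7.36 and 7.27 on calcitriol 1 and 2, so calcidiol was lower on these arrays. The difference was -1.06 (95% interval -1.27 to -0.86, adjusted p = 0.0026 by limma). Over all 3 arrays a group it was 0.30 (-1.38 to 1.99), with the opposite sign once the arrays numbered 3 entered. Adam23 differed by the same -1.06 on the arrays numbered 1 and 2 (-1.37 to -0.76, adjusted p = 0.0526 by limma), and by 0.04 (-1.18 to 1.26) over all. The arrays numbered 3 were left out because calcidiol 3 was known to stand apart. Casr and Adam23 are among the genes high on that array, so the adjusted p-values of both are not independent of that choice. Vdr differed by 0.47 (0.00 to 0.95, unadjusted p = 0.048), and by 0.26 (-0.11 to 0.62) on the arrays numbered 1 and 2. These intervals are too wide to say that the compounds acted alike.

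Whether glucose altered the calcidiol difference was tested as an interaction, which shared the 6 arrays above with 6 arrays of the glucose-stimulated state. Limma called 0 of 9852 genes (0%) over 18 arrays, with 32 at an unadjusted p under 0.05, and 0 over the 12 arrays numbered 1 and 2, with 138. Gpsm2 was among the genes with the smallest p. Its difference was -0.01 with glucose and -0.29 without, an interaction of 0.28 (95% interval 0.09 to 0.47), and for Tshz3 it was 0.31 and -0.05, an interaction of 0.35 (0.11 to 0.59). For Kctd1 the interaction was 0.32 (0.09 to 0.55). Casr had 6.32, 6.48 and 9.55 on the calcidiol arrays with glucose against 6.31, 6.20 and 6.33 on the glucose arrays. Array 3 was again the only high calcidiol array. The interaction for Casr was 0.14 (-2.25 to 2.52), and 0.14 (SE 0.13) on the arrays numbered 1 and 2. The first interval is wide because the unpaired fit counts the high level of array 3 as spread in both glucose states. Without glucose the calcidiol arrays had 6.20, 6.30 and 9.52, each close to the array of the same number with glucose. A paired interaction was not tested. Vdr had 7.37, 7.73 and 8.49 on the calcidiol arrays with glucose against 7.28, 7.49 and 7.40 on the glucose arrays. The order of the 3 calcidiol arrays for Vdr was thus the same in both glucose states.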

How the data were processed

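RNA of 18 INS1E samples was measured on Affymetrix rat gene arrays, 6 groups of 3 by the sample labels. The deposited values are log2 signals prepared by the authors. RMA and Partek appear in the submitters' processing notes, with neither role nor order, and no setting or version was found in the sources. The values were used as deposited. The median signal of an array lay between 7.52 and 7.63. Precision is limited by having 3 arrays a group.

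Of the probe sets deposited, 17017 in number, 14698 carried 1 gene symbol, 2306 none and 13 a symbol turned into a date. For each of 13136 symbols the probe set with the highest mean over all arrays was kept (942 had several). RefSeq GRCr8 held 11287 as current and 1021 as older symbols. Tests left out the 25% of genes with the lowest mean signal, which kept 9852. Counts on single arrays used all 13136, since a gene high on 1 array has a low mean.

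One limma 3.58.1 model (R 4.3.3, lmFit and eBayes) of 6 groups with 12 residual degrees of freedom gave each comparison. Its p-values were adjusted by Benjamini-Hochberg over every gene tested, at a threshold of 0.05. The fit of the 12 arrays numbered 1 and 2 had 6. Intervals are 95% intervals. Tables and plots used Python with pandas and matplotlib. The fits were tested on simulated data.

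The arrays, the 22 gene lists, the naming rule and the alternatives were chosen with earlier results of these data known. Named were the 6 higher and 6 lower genes with the smallest p, the 8 with the largest difference each way among separated genes and for calcidiol 3 against calcidiol 1 and 2, those with the smallest p on the 12 arrays, up to 3 genes a list, 4 for each other comparison, and Vdr, Rxra, Casr, Ins1, Ins2, Txnip, Fos, Egr1 and Nr4a1. Some of these are not reported here, and other members of the sets on single arrays were named after their values were seen. Replicate numbers were not taken to pair samples in the main model. Between calcidiol and control arrays, the same-number correlations of deviations from the group means were 0.42, 0.05 and 0.33 for numbers 1, 2 and 3. Correlations between different numbers ran from -0.41 to 0.08, so those for numbers 1 and 3 lay above that range and that for number 2 within it. These values are no ground against pairing, and whether samples of equal number belong together was not tested. Results of the replicate block are given below.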

Additional observations from a re-analysis of the deposited data

How the results depend on the processing

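For calcidiol against control, limma called 0 genes as reported and under all 14 kinds of alternative: no filter or a stricter one, the series matrix values, quantile normalisation, median centring, averaged or separate probe sets, an intensity trend with robust estimation, array weights, the compared groups alone, the replicate block, each array left out, the 12 arrays numbered 1 and 2, and those with the block. The interaction with glucose also gave 0 in each. Calcidiol against calcitriol gave 0 except on the 12 arrays (1 gene, Casr) and in variants of that choice. These were the 12 arrays with the replicate block and the 12 arrays plus control 3 (2 genes each, Casr and Adam23). Each of these choices leaves out calcidiol 3 and was made after seeing the data. Leaving out each array gave 0 to 0 genes in every comparison. With the replicate block on all arrays, calcidiol against control had 601 genes at an unadjusted p under 0.05, a smallest adjusted p of 0.634 and 0 calls. Of 1074 recomputed differences of 58 named genes 41 changed sign or became 0, and 0 passed the threshold. Ins2 came to 0 after quantile normalisation. On the 12 arrays, with and without the replicate block alike, the difference turned to -0.15 for Igfbp5, -0.25 for Lppr1, -0.090 for Gab1, 0.16 for Gcg, 0.23 for Oxtr, 0.20 for Adcy1, 0.087 for Gpd1 and -0.0046 for Egr1. With control 3 added it was -0.27 for Igfbp5, -0.054 for Casr, -0.19 for Lppr1, -0.11 for Gab1, 0.29 for Gcg, 0.095 for Lgals2, 0.27 for Trpc4, 0.17 for Wnk3, 0.24 for Oxtr, 0.34 for Adcy1 and 0.24 for Gpd1. These settings leave out calcidiol 3. Leaving out 1 array at a time, the differences ran from -0.27 to 0.24 for Rxra, -0.0044 to 0.10 for Ins1, -0.27 to 1.86 for Igfbp5, -0.054 to 1.60 for Casr, -0.19 to 1.37 for Lppr1, -0.11 to 1.12 for Gab1, -0.60 to 0.29 for Gcg, -0.76 to 0.095 for Lgals2, -0.70 to 0.27 for Trpc4, -0.66 to 0.17 for Wnk3, -0.44 to 0.24 for Oxtr, -0.32 to 0.34 for Adcy1 and -0.47 to 0.24 for Gpd1. The spread pooled over all 6 groups sets the width of the intervals, the share of background in low signals is unknown, and the labels of the arrays numbered 3 were not checked.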
